A study of Mus musculus with 51 samples.

Results

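The sites described here were 4036 places on the mouse autosomes where DMC1 was listed in testis without HELLS, where no DMC1 peak was listed with HELLS, and where no promoter was annotated. They were chosen from the 14692 DMC1 peaks of Hells conditional knockout (CKO) testis, 13965 of them autosomal. Each member overlapped none of the 15831 peaks of the Hells heterozygote (het) list and stayed out of the 1 kb on either side of every transcript start in GENCODE M21. Of the 12397 autosomal CKO peaks without a het peak, the other 8361 reached into such a promoter flank and are called new promoter peaks. The comparisons also used 938 distal CKO peaks that overlapped a het peak (shared) and 11623 distal het peaks that overlapped no CKO peak (het-only). The DMC1 lists chose the members, so their gain of DMC1 is a definition and was not tested. The authors deposited 1 merged list per genotype, without a score, and the spread between the 2 DMC1 libraries of each genotype could not be assessed.

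DMC1 was immunoprecipitated from whole testis of Hells het and Hells CKO males at 6 weeks of age. The chromatin and HELLS libraries used here came from males 12 to 14 days old. Enriched germ cells gave 3 ATAC libraries of Hells CKO and 2 of Hells wild type (wt). They gave 3 H3K4me3 libraries of Hells CKO, 1 of Hells wt, 1 of Spo11/+ and 2 of Spo11/Spo11, which lacks the enzyme that cuts meiotic DNA. ATAC was also done on C57BL/6J (B6, 2 libraries), on B6-Prdm9CAST-KI (KI, 2 libraries), a strain with the CAST allele of Prdm9, and on (B6xCAST) F1 hybrids (2 libraries). There were 3 H3K9ac libraries of B6, 2 of KI and 1 each of Spo11/Spo11 and the F1. KI testis gave 2 HELLS ChIP libraries, 1 IgG and 1 input library. The labels name neither the Cre driver of the knockout nor the stage at which Hells is lost, and no transcript was measured that would check the loss. The control was a heterozygote for DMC1 and a wild type for chromatin, so genotype, age and tissue of the break map and the chromatin maps differ. Nothing in the labels ties replicates to different animals, and the p-values rest on a spread between samples that may be technical.

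Meiotic recombination starts with programmed double-strand breaks, and DMC1 is the meiosis-specific recombinase that coats the single-stranded DNA beside a break. In mice PRDM9, a zinc-finger histone methyltransferase, binds hotspots and places H3K4me3 there, and HELLS, a SNF2-family chromatin remodeller, works with it to open them. H3K4me3 is also the mark of active promoters and, at lower levels, of some enhancers, and breaks are known to move to such places in mice without PRDM9. ATAC measures how easily a transposase reaches the DNA, and H3K9ac is an acetylation found at active promoters and enhancers.

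Library totals in the deposited regions ran from 6416704 to 11352108 counts for the Hells ATAC table and from 27952728 to 34572929 for the B6 and KI ATAC table. They ran from 13321006 to 42007820 for H3K4me3 and from 13195275 to 30233934 for H3K9ac. Levels are given as CPM, counts scaled to the library total with its TMM factor, and as CPM per kb of region where regions of different width are compared. All 10 genes of a list of early meiotic prophase had both an ATAC and an H3K4me3 region at their promoters. Of 11 Sertoli cell genes, 10 had an ATAC and 11 an H3K4me3 region, and the summed H3K4me3 at them was 709 CPM in the wt library and 786 to 1151 CPM in the CKO libraries. Their summed ATAC overlapped, at 498 to 557 CPM in wt and 495 to 578 in CKO. Summed H3K4me3 was also higher in CKO at 11 spermatogonial genes, 585 to 714 CPM against 533 in wt. At the early meiotic prophase genes it was 271 to 419 CPM in CKO and 327 in wt. Of 5 blood and macrophage genes 2 had an ATAC and 1 an H3K4me3 region. Of 9 peritubular, stromal and endothelial genes 8 and 9 did, and of 7 Leydig genes 5 and 4. A lower share of cells of one type and less mark per cell cannot be told apart in these libraries.

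Sequences of 6 members are shown, 200 bases around the centre of each, because the comparisons turn on them: the 3 sites whose H3K4me3 passed the test without HELLS (Slc7a11, Rreb1, Marveld2), one of the most accessible (Zfp869), the one with the highest H3K4me3 (BC048403) and the widest (Mir148a). They are read from the RefSeq genome GRCm38.p6 (mm10), plus strand, with CG dinucleotides in capitals. The windows are chr3:50382083-50382282, chr13:37931090-37931289, chr13:100612205-100612404, chr8:69716239-69716438, chr10:121762777-121762976 and chr6:51171379-51171578, in that order.
Slc7a11: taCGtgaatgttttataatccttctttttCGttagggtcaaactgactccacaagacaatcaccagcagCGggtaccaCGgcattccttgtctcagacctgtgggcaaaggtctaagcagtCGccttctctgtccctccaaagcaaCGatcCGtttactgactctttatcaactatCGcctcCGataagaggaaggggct
Rreb1: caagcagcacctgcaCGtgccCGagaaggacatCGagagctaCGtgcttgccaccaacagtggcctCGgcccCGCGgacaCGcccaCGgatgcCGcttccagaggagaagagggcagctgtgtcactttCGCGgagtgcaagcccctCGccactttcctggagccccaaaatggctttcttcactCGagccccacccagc
Marveld2: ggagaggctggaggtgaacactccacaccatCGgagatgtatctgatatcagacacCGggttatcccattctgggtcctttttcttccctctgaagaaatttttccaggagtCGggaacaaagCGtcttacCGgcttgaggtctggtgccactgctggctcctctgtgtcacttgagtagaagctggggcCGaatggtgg
Zfp869: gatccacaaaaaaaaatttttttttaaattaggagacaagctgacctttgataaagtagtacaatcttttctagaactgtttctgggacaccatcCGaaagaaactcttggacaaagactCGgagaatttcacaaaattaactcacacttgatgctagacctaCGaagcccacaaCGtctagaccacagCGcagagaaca
BC048403: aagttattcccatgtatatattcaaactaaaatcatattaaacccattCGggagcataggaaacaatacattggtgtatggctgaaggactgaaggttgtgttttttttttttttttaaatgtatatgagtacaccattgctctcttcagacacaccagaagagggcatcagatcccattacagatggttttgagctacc
Mir148a: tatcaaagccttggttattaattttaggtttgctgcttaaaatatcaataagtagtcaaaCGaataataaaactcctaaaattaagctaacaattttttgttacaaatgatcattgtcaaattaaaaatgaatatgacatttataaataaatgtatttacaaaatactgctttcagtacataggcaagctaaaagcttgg
The windows differ widely in composition. The Rreb1 window held 14 CG and 63.5% G or C, the Slc7a11 window 9 CG and 48.0%, and the Marveld2 window 6 CG and 53.0%. The Zfp869 window held 5 CG at 38.5%, and the BC048403 and Mir148a windows held 1 each at 36.0% and 25%. Repeats masked in the reference covered 54.0% of the BC048403 window.

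The distal new sites lay mostly between genes. Of the 4036, 2243 (55.6%) had their centre outside every annotated gene, 1320 (32.7%) in an intron and 473 (11.7%) in an exon. Among the distal het-only hotspots introns held 50.8% and intergenic DNA 44.4%. The sites were 1460 bp wide at the median (quartiles 970 and 2084), and the median distance to a transcript start was 14.6 kb, with 580 (14.4%) over 50 kb away. Genes holding a site numbered 1367, and 255 of them held more than 1. Dlgap1, a postsynaptic scaffold gene, Fyco1, an adaptor of vesicle transport, and Gpc6, a cell-surface proteoglycan, held 9 each, followed by Hs6st3 and Zfhx3 with 8 and by Lsamp, Robo1 and Tenm3 with 7. Neighbouring sites were 204 kb apart at the median, and 156 gaps (3.88%) were within 5 kb.

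Values on either side of the 2 thresholds are given as a description. The 129 members whose edge lay 1000 to 1500 bp from a start had a median H3K4me3 of 7.35 CPM per kb in CKO, and the 216 new promoter peaks at 500 to 1000 bp had 10.9. The 72 members with a het peak within 1 kb had 5.47 CPM per kb, and the 16 distal shared peaks that overlapped a het peak by less than 200 bp had 4.59, against 0.778 over all 938 shared peaks. The annotation also sets the boundary: 352 members (8.72%) had a start within 1 kb in RefSeq, 47 of them (1.16%) a curated one and 317 (7.85%) a predicted one. With the RefSeq starts removed as well, 3684 sites were left.

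Chromatin states 1 and 2 held nearly all distal new sites. In the 11-state segmentation that the authors built from histone marks of B6 germ cells, and whose states carry only numbers here, 1828 centres (45.3%, exact 95% interval 43.7 to 46.8) fell in state 1 and 1755 (43.5%, 41.9 to 45.0) in state 2. These states cover 1.73% and 1.29% of the autosomes and hold 30.6% and 15.8% of annotated transcript starts. State 7, which covers 0.584% and held 71.7% of the distal het-only hotspots, had 31 members (0.768%). Of the new promoter peaks 78.9% were in state 1. The other members lay in state 4 (171), state 11 (86), state 6 (59), state 3 (58), state 5 (19), state 9 (17), state 10 (8) and state 8 (4). Intervals here and elsewhere cover counting error only.

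Almost every site carried H3K4me3, while many were not called open. An H3K4me3 region overlapped 3838 of the 4036 sites (95.1%, exact 95% interval 94.4 to 95.7), an H3K9ac region 3494 (86.6%), a B6 or KI ATAC region 3092 (76.6%) and a Hells ATAC region 2036 (50.4%, 48.9 to 52.0). At 1812 sites (44.9%) an H3K4me3 region stood without a Hells ATAC region. Of the new promoter peaks 90.3% had a Hells ATAC region, and of the distal het-only hotspots 16.4% had one and 77.6% an H3K4me3 region. The ATAC tables differ in depth, so the share called open depends on the table. No region in any of these sets covered 170 members (4.21%). The 86 members in state 11, which covers 42.0% of the autosomes, had an H3K4me3 region at 17 (19.8%) and a Hells ATAC region at 3 (3.49%), and were 1053 bp wide at the median. Of the 59 in state 6, 2 had an H3K4me3 region and 2 a Hells ATAC region (3.39% each). In states 1 and 2 the shares with H3K4me3 were 99.5% and 99.7% and with Hells ATAC 77.2% and 30.8%.

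HELLS was rarely bound where the sites lay. A HELLS peak of KI testis overlapped 19 members (0.471%, exact 95% interval 0.284 to 0.734), against 917 new promoter peaks (11.0%, 10.3 to 11.7), 20 distal het-only hotspots (0.172%) and 4 distal shared peaks (0.426%). All 19 members were in states 1 and 2. In those 19 peaks the HELLS libraries held 55 and 53 counts at the median, the IgG library 12 and the input library 19, and over all HELLS peaks the HELLS medians were 59 and 50. The KI strain carries another Prdm9 allele, so HELLS brought to hotspots of the B6 allele is not measured in these libraries.

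H3K4me3 at the distal new sites overlapped between libraries with and without HELLS, and it stood above that of other distal regions in every library. The 3789 H3K4me3 regions that overlapped the 3838 sites all passed the filter on low counts. Their median level was 6.75, 5.36 and 4.69 CPM per kb in the 3 CKO libraries, 5.45 in Hells wt, 6.33 in Spo11/+ and 6.01 and 6.00 in Spo11/Spo11. The CKO libraries thus lay on both sides of the wt library. At the 23523 regions of states 1 and 2 that held no DMC1 peak and reached no promoter flank (distal regions without DMC1), the median was 3.07 to 3.60. The ratio of the 2 medians was 1.44 to 2.01, above 1 in 7 of 7 libraries. Against new promoter peaks the sites were lower, at 0.274 to 0.422 of their median. Distal het-only hotspots had 0.365, 0.673 and 0.369 CPM per kb in CKO and 2.34 in wt. The regions at the sites were also wider, 1904 bp against 1318 bp at the median, and 161 of them (4.25%) extended into a promoter flank.

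Where an ATAC region was called, accessibility per kb at the sites was close to that of other distal regions. In the Hells ATAC table the 2027 tested regions at the sites had medians of 7.61, 6.84 and 6.29 CPM per kb in CKO and 7.39 and 7.15 in wt, and distal regions without DMC1 had 6.90 to 7.26. The ratio was 0.902 to 1.07 and exceeded 1 in 3 of 5 libraries. It was 0.996 to 1.07 in the 4 B6 and KI ATAC libraries and 1.17 to 1.28 in the 6 H3K9ac libraries, where all 6 exceeded 1. The B6 and KI ATAC regions were wider at the sites, 938 bp against 698 bp at the median. In CPM per region, mean library medians were 7.17 at the sites and 5.01 at distal regions without DMC1 in B6, and 7.19 and 5.29 in KI. In the Hells table the widths were 939 and 851 bp. Sites in state 1 were above sites in state 2 in every library, by 1.39 to 1.57 times for H3K4me3 and 1.27 to 1.34 times for Hells ATAC. Across sites, levels of the marks went together: Spearman's rho was 0.776 between H3K4me3 and H3K9ac (3473 sites), 0.658 between ATAC and H3K9ac (2011 sites) and 0.565 between H3K4me3 and ATAC (2026 sites). Sites share the libraries in these values, and rho is a description.

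**Figure D1:**
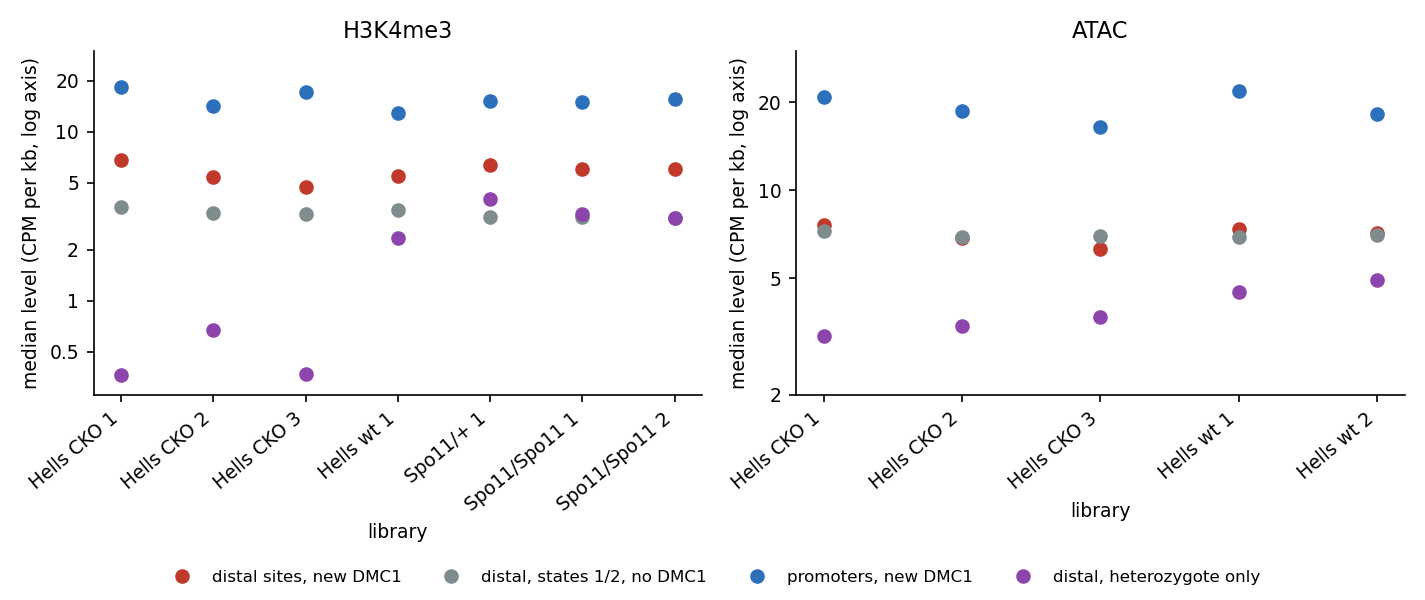
Median level per library (CPM per kb of region, log axis) for H3K4me3 in 7 libraries and ATAC in 5 libraries, with 1 point per class of regions. The H3K4me3 of the distal new sites, 4.69 to 6.75, lies above that of distal regions without DMC1 in every library, while their ATAC level lies beside it.

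In the H3K4me3 and Hells ATAC libraries the distance between the sites and other distal regions varied together with the promoters of early meiotic genes. The H3K4me3 ratio was 1.44 in CKO replicate 3, where the summed promoter level of the 10 early meiotic prophase genes, among them the synaptonemal complex genes Sycp1 and Sycp3, was 271 CPM. It was 1.59 in wt (327 CPM), 1.61 in CKO replicate 2 (358 CPM) and 1.88 in CKO replicate 1 (419 CPM). It was 1.91 and 1.95 in Spo11/Spo11 (422 and 419 CPM) and 2.01 in Spo11/+ (450 CPM). The ATAC ratio followed the same order, from 0.902 in CKO replicate 3 (218 CPM) through 0.991 in CKO replicate 2 (288 CPM), 1.02 in wt replicate 2 (292 CPM) and 1.05 in CKO replicate 1 (394 CPM) to 1.07 in wt replicate 1 (438 CPM). In B6 and KI ATAC the order was not kept, with ratios of 1.07, 1.05, 1.01 and 0.996 at 642, 497, 559 and 491 CPM. H3K9ac showed no such order, with a ratio of 1.28 at 274 CPM and 1.24 at 413 CPM. Spermatogonial promoters went nearly the same way in Hells ATAC. From the lowest ratio to the highest their sums were 391, 436, 424, 492 and 480 CPM. Their summed H3K4me3 did not follow the ratio and was highest, 714 CPM, in CKO replicate 3. The summed H3K4me3 of Sertoli promoters was also highest, 1151 CPM, in CKO replicate 3. The part of germ cell stage or of other cells in these differences was not tested.

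**Figure D2:**
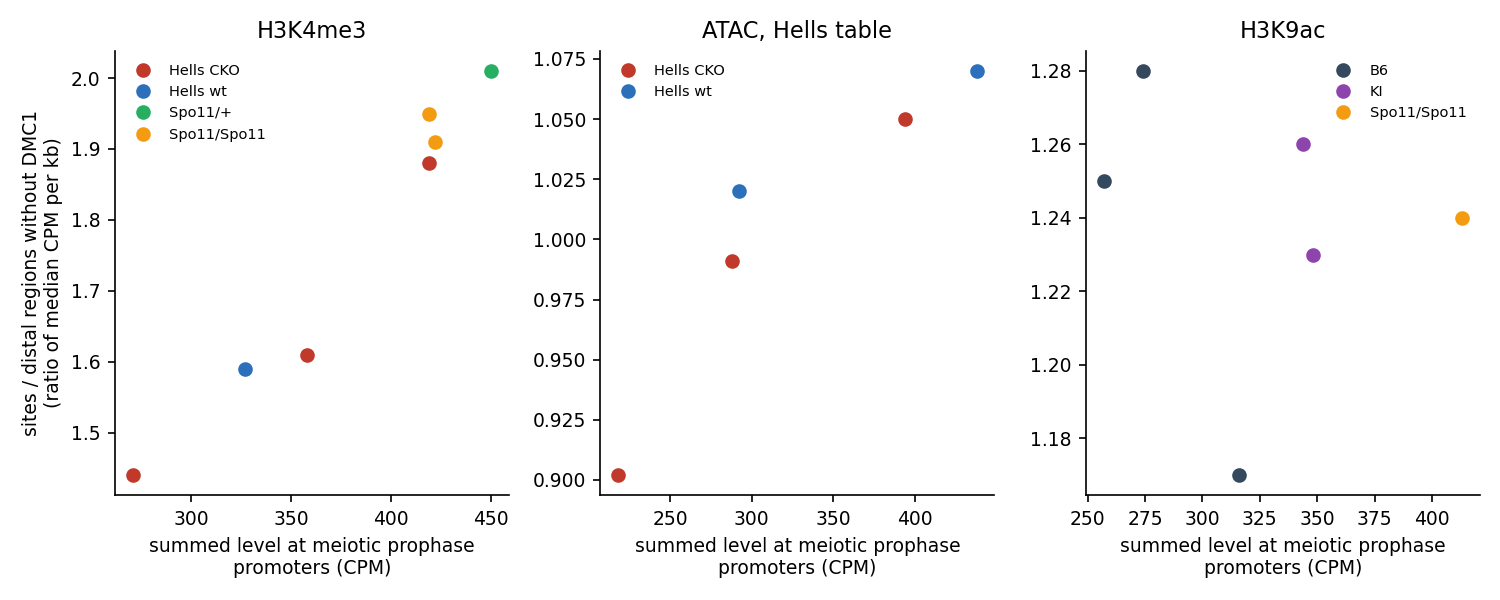
Ratio of the median level at the distal new sites to that at distal regions without DMC1 (vertical axis) against the summed promoter level of 10 early meiotic prophase genes in CPM (horizontal axis), 1 point per library, with a separate scale in each panel. The H3K4me3 ratio runs from 1.44 to 2.01 and the Hells ATAC ratio from 0.902 to 1.07, and both are lowest in CKO replicate 3, which also has the lowest sum.

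Without HELLS few of the sites changed in H3K4me3. By edgeR's quasi-likelihood test with Benjamini-Hochberg adjustment over all 78959 regions, 1 of 3789 regions at the sites was higher in CKO and 2 were lower, where 0.0279% of all regions were higher and 11.7% lower. Over the sites the log2 fold change had a median of 0.05 and quartiles of -0.10 and 0.21, and 7 changed by more than 2-fold. The median was -0.00 in distal regions without DMC1, 0.35 at new promoter peaks and -0.02 over all regions. At distal shared peaks it was -2.23, with 671 of 887 lower, and at distal het-only hotspots -2.33, with 6224 of 9021 lower. Another scaling shifted all regions alike: with RLE factors the sites were at 0.16 and all regions at 0.09, and with library size alone at -0.10 and -0.17, so the sign of the median at the sites is not fixed. Hells wt was 1 library and was assumed to vary like the others. Without CKO replicate 1 the counts were 4 higher (0.106%) and 30 lower (0.792%), where the same fit called 0.575% and 13.6% of all regions. Without CKO replicate 2 they were 57 and 3 of 3789, against 3.22% and 12.9% of all regions. They were 0 and 1 without CKO replicate 3 (all regions 0.00760% and 8.73%). Without either Spo11/Spo11 library the median log2 fold change at the sites stayed at 0.05. DESeq2 called 30 higher (0.792%) and 1 lower (0.0264%), against 1.32% and 9.88% of all regions.

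Slc7a11, which encodes the cystine and glutamate antiporter, held the one site that rose (chr3:50381661-50382704, intron, state 1). Its H3K4me3 was 30.3, 17.5 and 22.1 CPM in CKO, 10.3 in Hells wt, 18.7 in Spo11/+ and 19.1 and 19.5 in Spo11/Spo11. All 3 CKO libraries were above the wt library, but they overlapped the Spo11 libraries. The log2 fold change was 1.17 (SE 0.315, edgeR's adjusted p = 0.0318), and against all 4 other libraries it was 0.59 (adjusted p = 0.0550). The call was also lost without CKO replicate 3 (1.24, adjusted p = 0.0998).

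Rreb1, a zinc-finger transcription factor gene, held the site that fell most (chr13:37930705-37931674, exon, state 1). Its H3K4me3 was 8.27, 9.60 and 9.20 CPM in CKO, 18.7 in Hells wt, 15.4 in Spo11/+ and 14.7 and 14.9 in Spo11/Spo11, so that the 3 CKO libraries lay under all 4 others. It fell by 1.05 on the log2 scale (SE 0.215, edgeR's adjusted p = 0.00713). Marveld2, which encodes the tight junction protein tricellulin, held the other (chr13:100611268-100613342, exon, state 1), with 6.19, 8.77 and 7.08 CPM in CKO, 13.7 in Hells wt, 14.0 in Spo11/+ and 11.6 and 11.3 in Spo11/Spo11. It fell by 0.90 (SE 0.252, edgeR's adjusted p = 0.0392), also with no overlap between CKO and the other libraries, and the call was lost with DESeq2 (adjusted p = 0.101), with RLE scaling (0.0852), without CKO replicate 3 (0.0938) and without either Spo11/Spo11 library (0.0896 and 0.0904).

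Accessibility of the sites did not change detectably without HELLS. In edgeR's quasi-likelihood test 0 of 2027 regions were higher and 0 lower, 13 (0.641%) had an unadjusted p under 0.05, and the count by DESeq2 was 0 in either direction. Of all 95033 regions 0% were higher and 0.382% lower, and 1468 (1.54%) passed unadjusted. The log2 fold change at the sites had a median of -0.06 and quartiles of -0.19 and 0.06. The median was 0.01 in distal regions without DMC1 and -0.11 at new promoter peaks. At distal shared peaks it was -1.44, with 193 of 533 lower. Of the regions at the sites, 2 differed by more than 2-fold. With the library series of the labels as a block, which pairs CKO and wt replicates 1 and 2, 2 regions at the sites (0.0987%) were lower, where 1.26% of all regions were.

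H3K4me3 at the sites was also compared with and without SPO11, the enzyme that makes the breaks. Between Spo11/Spo11 and Spo11/+ germ cells, edgeR's quasi-likelihood test called 0 of the 3789 H3K4me3 regions at the sites in either direction, as it did 0% of all regions. It gave 3 with an unadjusted p under 0.05, the count by DESeq2 was 0, and the median log2 fold change was -0.07 at the sites and -0.02 over all regions. Spo11/+ was 1 library.

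**Figure D3:**
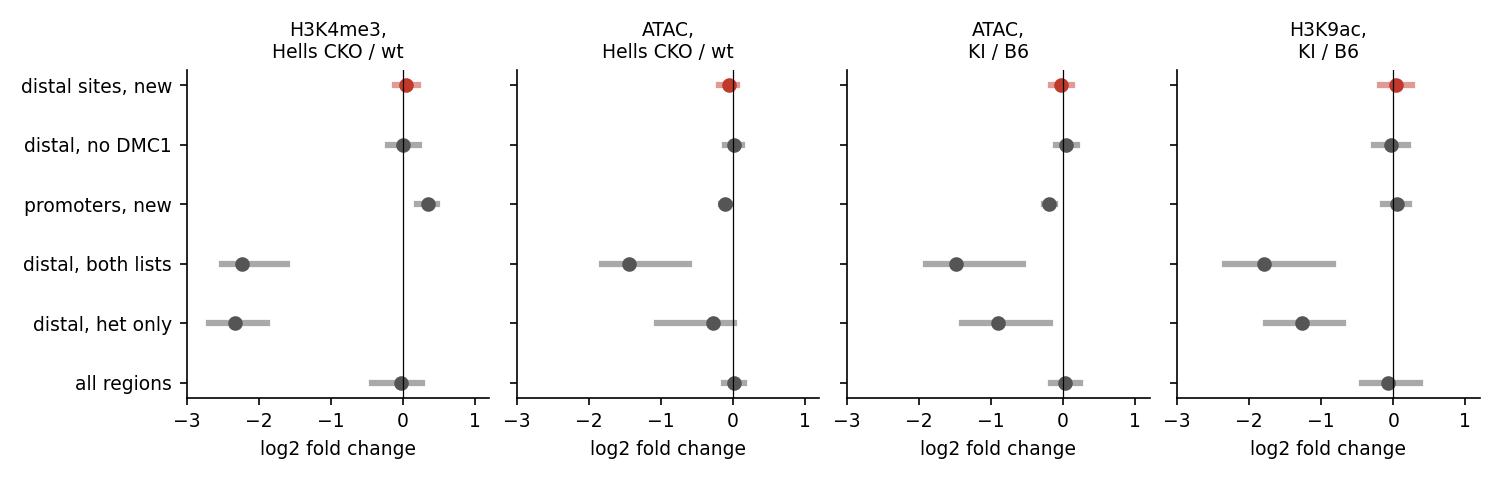
Median (point) and quartiles (bar) of the log2 fold change over the regions of each class in 4 comparisons. The distal new sites have medians of 0.05, -0.06, -0.03 and 0.04 from left to right, and the bars of the het hotspots (distal, both lists and distal, het only) reach much further to the left.

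DMC1 was found more often at distal regions with more H3K4me3. Of the 27091 distal H3K4me3 regions in states 1 and 2 with no het peak and no promoter flank, 3568 (13.2%) held a CKO peak, and 3528 of these held a member. With the regions ordered by H3K4me3 in CKO and cut into 10 groups of equal size, the share from the lowest to the highest group was 1.81%, 1.62%, 3.14%, 4.58%, 7.42%, 10.9%, 14.9%, 21.4%, 29.1% and 37.0% (exact 95% interval of the lowest 1.34 to 2.38 and of the highest 35.1 to 38.8). Among regions 1000 to 2000 bp wide it went from 3.26% to 26.1%, and with the level of the Hells wt library from 1.18% to 35.5%. Without CKO replicate 3 the share in the lowest group was 0.996%, and without replicate 1 it was 2.80%. DMC1 peaks chose the members, while the H3K4me3 level had no part in the choice, and the libraries come from animals of different ages.

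The share with a CKO peak rose with H3K4me3 in distal and promoter regions alike, and neither kind was higher in every class of level. Between 2 and 4 CPM per kb the share was 5.09% in distal and 4.48% in promoter regions. Between 4 and 8 it was 22.7% (exact 95% interval 21.8 to 23.5) and 19.2% (18.1 to 20.4). Between 8 and 16 it was 37.7% (35.3 to 40.1) and 41.4% (40.1 to 42.6), with median widths of 2136 and 2892 bp. Between 16 and 32 it was 67.0% (63 of 94, exact 95% interval 56.6 to 76.4) and 76.6%. The order thus turned within the range, and promoter regions were wider, 3091 bp against 2577 bp at the median in the highest of these classes.

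Among ATAC regions the share with a CKO peak varied less with their level. Here each assay's own distal regions in states 1 and 2 without a het peak were grouped, not the H3K4me3 regions. With 10 groups of ATAC regions by Hells CKO level the share was 14.4% in the lowest, 12.1% at the least and 16.7% in the highest. For H3K9ac regions grouped by B6 level it went from 6.29% to 28.5%. The regions differ, so these ranges do not rank the assays. The distal H3K4me3 regions were also cut into 4 equal groups by H3K4me3, from low to high. Those with a Hells ATAC region held a CKO peak in 0.423%, 2.53%, 9.60% and 30.6% of cases, and those without one in 2.83%, 7.34%, 17.8% and 32.8%. With the regions of the deeper B6 and KI ATAC table the order turned in the upper groups, to 1.81%, 5.65%, 15.8% and 33.0% with and 2.10%, 5.23%, 10.7% and 16.4% without. No direction for accessibility beside H3K4me3 can therefore be given.

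**Figure D4:**
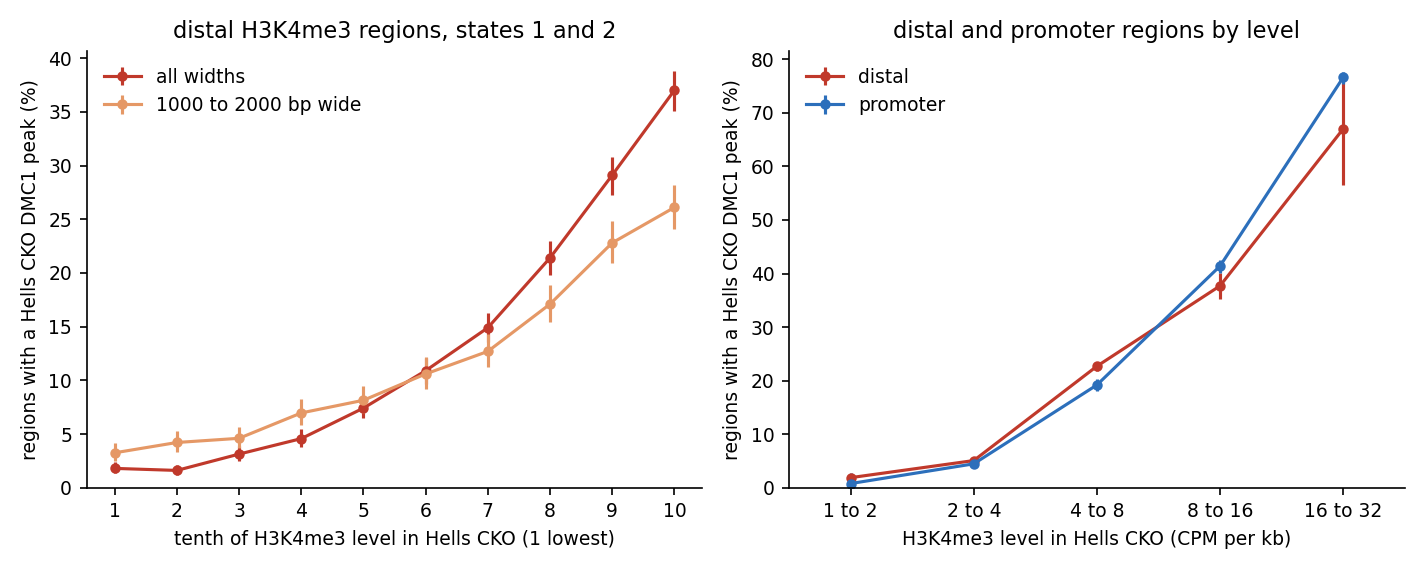
Share of H3K4me3 regions in states 1 and 2, without a het peak, that hold a CKO DMC1 peak (percent, with exact 95% intervals): left in 10 groups by H3K4me3 level for distal regions of all widths and of 1000 to 2000 bp, right by level class for distal and promoter regions. On the left the share reaches 37.0% and 26.1% in the highest group, and on the right it reaches 67.0% and 76.6% between 16 and 32 CPM per kb.

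Wider sites more often overlapped an ATAC region and were more often in state 1, but their ATAC level was not higher. From the narrowest of 4 equal groups of sites (800 to 970 bp) to the widest (2084 to 8309 bp) the share with a Hells ATAC region went from 40.3% to 60.2%, and the share in state 1 from 36.1% to 52.5%. A wider site has more bases to meet the overlap of 1 bp. The median ATAC in CKO at the sites with a region was 7.11, 6.87, 6.47 and 6.66 CPM per kb from the narrowest group to the widest (Spearman's rho with width -0.064, 2036 sites). The median H3K4me3 went from 5.02 to 6.28 CPM per kb (rho 0.197, 3838 sites). Sites with an ATAC region had 6.92 CPM per kb of H3K4me3 in CKO, and sites without one 4.53. The widest site lay 98.4 kb from the microRNA gene Mir148a (chr6:51167325-51175633, 8309 bp, state 2). It was followed by sites near Ebf3 (6248 bp), a transcription factor gene, in Sema3e (5513 bp), a secreted guidance molecule, near Neurog2 (5398 bp), a neural transcription factor gene, and near Gm37930 (5391 bp). Of these 5, 4 had a RefSeq start within 1 kb, and the one in Sema3e had none.

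Of the 5 most accessible sites, 4 are described, and they lay within 5.62 kb of a transcript start. The site 5.62 kb from Zfp869, a zinc-finger gene (chr8:69715309-69717369, state 1), had 68.6, 60.6 and 68.0 CPM in CKO and 83.3 and 63.1 in wt, and a RefSeq start lay within 1 kb. CKO and wt overlapped. The other 3 were in C130036L24Rik, near Kdm6b, which encodes an H3K27 demethylase, and in Ptma, which encodes prothymosin alpha. At C130036L24Rik and Ptma the ATAC region reached into a promoter flank, and the Ptma site held a HELLS peak.

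Of the 5 sites with the highest H3K4me3 per kb, 4 are described, all narrow and with values that moved together between libraries. The site 12.0 kb from BC048403 (chr10:121762472-121763282, state 11) had 182, 299 and 258 CPM in CKO, 294 in Hells wt, 129 in Spo11/+ and 133 and 161 in Spo11/Spo11. Those in Gm15218 (state 11), in Mylip (state 11), an E3 ligase gene of lipoprotein receptor turnover, and in Polr1b (state 3), a subunit gene of RNA polymerase I, were likewise higher in Hells wt and CKO replicates 2 and 3 than in the other 4 libraries. Gm15218 had 205 CPM in wt, 181 and 143 in these CKO libraries and 78.7 to 95.7 in the others. Mylip had 61.5, 62.4 and 54.2 against 21.7 to 35.5. None of the 4 was called between CKO and wt by edgeR, and 3 of them lie in a state that otherwise held few H3K4me3 regions. The sites at BC048403, Gm15218 and Mylip had no ATAC region of either set. H3K9ac was also high at BC048403 (90.2 to 232 CPM) and Gm15218 (139 to 416 CPM). By the labels Hells wt and CKO replicate 2 share a library series, CKO replicate 3 is in another, and the lower libraries are in further ones. Why the higher libraries stand apart there was not tested.

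Few sites differed between the strains with the CAST and the B6 allele of Prdm9. Between KI and B6, edgeR's quasi-likelihood test with Benjamini-Hochberg adjustment found ATAC higher in KI in 20 of 3081 regions at the sites (0.649%) and lower in 1 (0.0325%), where 7.14% of all regions were higher and 2.27% lower. In distal regions without DMC1 120 of 15106 (0.794%) were higher. H3K9ac was higher in 48 of 3446 regions (1.39%) and lower in 1 (0.0290%), where 12.1% of all regions were higher and 0.208% lower, and in distal regions without DMC1 187 of 17035 (1.10%) were higher. The median log2 fold change at the sites was -0.03 for ATAC and 0.04 for H3K9ac, beside 0.02 and -0.07 over all regions. With RLE scaling 18 were higher and 5 lower in ATAC, where 7.08% and 2.51% of all regions were. With library size alone 41 were higher and 8 lower in H3K9ac, where 10.6% and 0.510% of all regions were. With library size alone the H3K9ac medians were -0.11 at the sites and -0.22 over all regions. The library series in the labels follows the strain, so strain and series cannot be told apart.

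Single libraries weighed heavily in both KI comparisons. For ATAC the counts at the sites without B6 replicate 1 were 113 higher (3.67%) and 270 lower (8.76%), where the same fit called 12.7% and 10.3% of all regions. Without B6 replicate 2 they were 51 (1.66%) and 174 (5.65%), against 10.6% and 9.51% of all regions. Leaving out KI replicate 1 gave 10 and 0, and leaving out KI replicate 2 gave 11 and 0, where 6.64% and 6.70% of all regions were higher. For H3K9ac the counts were 27 and 0 without B6 replicate 1 and 12 and 0 without B6 replicate 3, where 7.65% and 2.16% of all regions were higher. Without B6 replicate 2 they were 902 (26.2%) and 697 (20.2%), near the 28.7% and 26.8% of all regions. Without either KI library they were 0 and 0 at the sites and over all regions, at 65 and 59 unadjusted passes among the sites. Without the Spo11/Spo11 library they were 56 and 0, where 14.0% of all regions were higher. B6 replicate 2 stood apart in H3K9ac at het hotspots. Its median at distal het-only hotspots was 6.80 CPM, against 1.55 and 1.57 in B6 replicates 1 and 3. At distal shared peaks it was 13.2 against 3.42 and 3.33, and at the sites 7.93 against 7.32 and 7.37. The reason was not tested.

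Of the 20 sites with higher ATAC in KI, 17 were also higher in H3K9ac, which is 85.0% of the first list and 35.4% of the 48 in the second. Over all regions 5184 of the 5847 with higher ATAC overlapped a region higher in H3K9ac (88.7%), and 5086 of the 11121 with higher H3K9ac one higher in ATAC (45.7%). A HELLS peak overlapped 6 of the 20 and 7 of the 48. The HELLS peaks also came from KI testis. Their share over all regions higher in KI was not counted, so these counts are not read as a trait of the sites. The site 16.6 kb from Gm49172 (chr15:96009520-96011859, state 2) had 4.04 and 3.76 CPM of ATAC in B6 and 19.8 and 17 in KI, without overlap (log2 fold change 2.24, SE 0.193, edgeR's adjusted p = 3.44e-06). The site 51.0 kb from Mir99ahg (chr16:77184743-77185939, state 2) had 1.91 and 1.92 CPM in B6 and 11.1 and 8.95 in KI (2.39, SE 0.242, adjusted p = 1.26e-05). In an exon of Pde7b, a cAMP phosphodiesterase gene (chr10:20399680-20401196, state 2), values were 7.23 and 5.88 in B6 and 22.0 and 21.4 in KI (1.73, SE 0.179, adjusted p = 1.52e-05), and a HELLS peak lay there.

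One named site passed the test in H3K9ac and not in ATAC, a difference between assays that was not tested itself. In an intron of Gm37800 (chr1:184614274-184616009, state 1) H3K9ac was 5.77, 6.86 and 5.90 CPM in B6 and 55.2 and 56.9 in KI, without overlap (log2 fold change 3.18, SE 0.150, edgeR's adjusted p = 0.00450), while ATAC differed by 0.17. The sites in Camk2a, a kinase gene, and near AC124430.1 rose in both, by 2.37 and 2.39 in H3K9ac (adjusted p = 0.00450 each) and by 1.61 and 1.22 in ATAC. Without either KI library the adjusted p of these 3 was 0.0671 and 0.102. The single falls were near Camta1, a calmodulin-binding transcription factor gene (chr4:151880871-151883228), in ATAC, from 29.4 and 37.3 to 21.6 and 22.3 CPM (adjusted p = 0.0282), and in 2600014E21Rik (chr2:75149638-75150461), in H3K9ac, from 25, 20.4 and 24.3 to 11.4 and 13.6 (adjusted p = 0.0324). The Camta1 call was lost without either KI library (0.452 and 0.318) and with library size alone (log2 fold change -0.55, 0.0801). The 2600014E21Rik call was lost without any one of B6 replicates 1 and 3, KI replicates 1 and 2 and the Spo11/Spo11 library (0.0712 to 0.338), and a het peak lay 0.324 kb from that site.

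In F1 hybrids, where both alleles share a nucleus, most sites were not called unequal, and those that were leaned to the B6 allele. Of 3594 regions at the sites with at least 20 allele counts, 280 were higher on the B6 allele and 97 on the CAST allele by edgeR's quasi-likelihood test, 10.5% together. Of all 70654 regions 5806 (8.22%) and 3908 (5.53%) were, so the calls at the sites were more one-sided than those of all regions, a difference that was not tested. New promoter peaks leaned the same way, with 468 and 242. Alleles were not scaled to each other, and the B6 totals were higher, 5003968 against 4796823 in the first ATAC library and 4486130 against 4321370 in the second. With at least 50 allele counts 14.7% of the sites and 18.8% of all regions were called. The median log2 ratio of B6 to CAST was 0.09 at the sites (quartiles -0.18 and 0.40), 0.03 over all regions and -0.30 at distal het-only hotspots, of which 26.2% were called. In the single F1 H3K9ac library 10.3% of regions at the sites differed by more than 2-fold, beside 19.9% of all regions and 48.4% at het-only hotspots. Of the 339 called sites with enough H3K9ac counts, 297 leaned to the same allele in H3K9ac. The same count was not made over all called regions, so it is not read as a trait of the sites. The most unequal, picked after its values were seen, was in an intron of Adgrv1, an adhesion receptor gene (chr13:81452260-81453291). It had 11 B6 and 467 CAST counts in the first library and 11 and 370 in the second (log2 ratio -5.23, SE 0.192, adjusted p = 4.14e-13).

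The frequency of the sites differed between chromosomes. They numbered 109 on chromosome 9 and 341 on chromosome 10, or 0.825 per Mb on chromosome 7 and 2.61 per Mb on chromosome 10. Of the distal H3K4me3 regions in states 1 and 2, 5.54% (exact 95% interval 4.36 to 6.93) held a CKO peak on chromosome 9, 18.7% (16.4 to 21.1) on chromosome 16 and 19.8% (17.5 to 22.4) on chromosome 18. The median H3K4me3 of these regions was 3.72, 3.30 and 3.47 CPM per kb, so the chromosome with the lowest share did not have the lowest level. Promoter regions ran from 34.5% on chromosome 7 to 55.6% on chromosome 16. Along the chromosomes the share stayed between 11.1% and 16% in 10 stretches of equal length. The count of sites was 262 in the first stretch and 652 in the last, with 1373 and 4014 such regions to hold them.

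**Figure D5:**
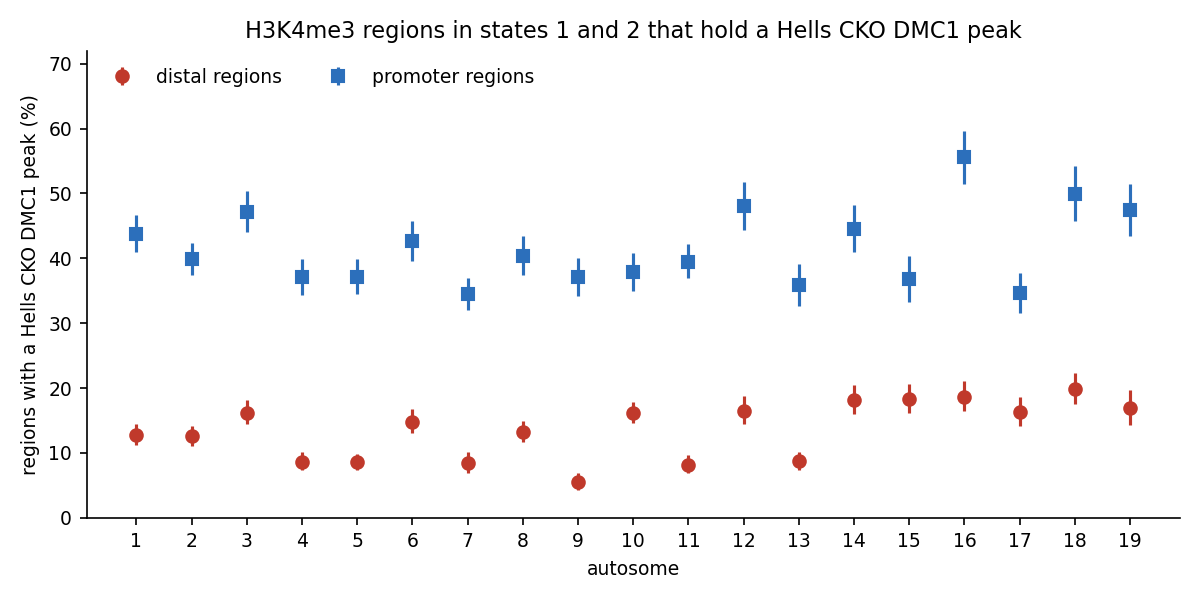
Share of distal (circles) and promoter (squares) H3K4me3 regions in states 1 and 2 that hold a CKO DMC1 peak, by autosome, in percent with exact 95% intervals. Distal regions range from 5.54% on chromosome 9 to 19.8% on chromosome 18.

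In base composition the sites resembled other distal regions of states 1 and 2. Their CpG ratio was higher in each of 4 groups by H3K4me3, while the share of windows rich in CpG turned in the highest group. In 300 bp around the centre of the 3789 H3K4me3 regions at the sites, the median G and C content was 50% and the observed over expected CpG ratio 0.471. Distal regions without DMC1 had 50% and 0.411, new promoter peaks 60.7% and 0.724, and distal het-only hotspots 43.0% and 0.162. A CpG-rich window (at least 50% G and C and a ratio of at least 0.6) was found at 14.8%, 8.72%, 60.6% and 0.198% of these classes. In 4 groups by H3K4me3, from low to high, the ratio was 0.541 against 0.392, 0.490 against 0.392, 0.451 against 0.418 and 0.477 against 0.460. The highest group held 2094 of the windows at the sites, and there the CpG-rich share turned, to 15.7% against 19.2% without DMC1. G and C content was 48.7% against 48.3% in the lowest group and lower at the sites in all others. From low to high it was 48.0% against 49.7%, 48.7% against 50.7% and 51.0% against 53.3%. In 5 groups by CpG ratio, from low to high, the share of regions with a CKO peak was 8.31%, 10.6%, 12.0%, 14.7% and 19.1%, and the median H3K4me3 rose with it from 3.16 to 4.17 CPM per kb. Members in state 1 were CpG-rich in 16.7% of cases and in state 2 in 10.1%.

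The same windows were searched on both strands for 12 short motifs, of which the forms with C and G overlap with CpG content. The GC box GGGCGG was in 16.9% of windows at the sites, 15.7% at distal regions without DMC1 and 35.7% of 32851 RefSeq promoter windows of the same length. The NRF1 form GCGCATGC was in 1.74%, 3.5% and 2.71%, and the NR5A form TCAAGGTCA in 0.396%, 0.812% and 0.423%. The GATA form AGATAA was in 11.9%, 14.8% and 11.2%. The shares for NF-Y CCAAT were 30.8%, 32.8% and 37.4%, for the E-box CACGTG 8.21%, 8% and 7.15%, and for ETS CCGGAAGT 2.38%, 2.27% and 3.89%. They were 0.607%, 0.697% and 1.79% for CRE TGACGTCA, and 7.57%, 8.28% and 7.81% for AP-1 TGANTCA. For DMRT ACANTGT they were 8.05%, 9.51% and 7.54%, for MYB CAACTG 12.4%, 13.8% and 13.7%, and for RFX GTTGCCA 3.40%, 4.20% and 4.38%. No motif of the 12 was more than 1.5 times as frequent at the sites as at other distal regions, and those of NRF1 and NR5A were less frequent by more than that.

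Some genes of the recombination machinery had a distal new site. Of 25 genes of PRDM9 and its partners and of break formation and repair, 3 held one or were nearest to one, where 1805 of 20780 autosomal protein-coding genes (8.69%) did: Ewsr1 (chr11:5090812-5093142, exon), which encodes an RNA-binding partner of PRDM9, Mei1 (chr15:82064137-82065652, exon), needed for break formation, and Rec114 (chr9:58766903-58768382, 23.7 kb away), a break accessory factor. H3K4me3 at the Mei1 site had a log2 fold change of -0.06 without HELLS (SE 0.212, edgeR's adjusted p = 0.958), and the sites at Ewsr1 and Rec114 had no tested H3K4me3 region. At the promoters of these genes 0 of 28 H3K4me3 regions and 0 of 34 ATAC regions were called in either direction by edgeR (median log2 fold changes 0.24 and -0.13). Unadjusted p-values under 0.05 numbered 2 and 0, and DESeq2 called 1 H3K4me3 region lower. Among marker genes, sites lay in or nearest to 3 of 11 spermatogonial genes (Kit, Etv5 and Nanos3), 2 of 10 of early meiotic prophase (the synaptonemal complex genes Sycp3 and Syce1), 2 of 11 Sertoli genes (Sox9 and Cldn11, 4 sites) and 1 of 5 blood and macrophage genes (Adgre1). The count was 0 of 11 genes of pachytene cells and spermatids, 0 of 7 Leydig genes and 0 of 9 peritubular, stromal and endothelial genes. The lists are short, and no count is read as a difference from the 8.69%.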

How the data were processed

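ATAC, histone ChIP, HELLS ChIP and DMC1 lists of mouse male germ cells or testis were used as deposited. The authors deposited raw counts of reads per region for ATAC, H3K4me3, H3K9ac and HELLS, and, for the F1, estimated counts per allele, which were rounded to whole numbers here. The submitters' processing notes name CASAVA, BWA 0.7.15, Bowtie 0.12.9, MACS 1.4.2 and mm10, and which tool made which file is not given in the sources used here. Columns that matched no sample by name, 10 in all, were left out, as were 56 regions listed more than once. B6 and KI ATAC columns name the strain alone, so their replicate numbers only name columns.

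Peaks were intersected with bedtools 2.31.1 (overlap of at least 1 bp) under Python 3.11.15, with GENCODE M21 starts and a flank of 1000 bp. Counts were tested over all regions of a table with edgeR 4.0.16 (TMM, filterByExpr, quasi-likelihood F test, Benjamini-Hochberg threshold 0.05) in R 4.3.3, with the compared groups for ATAC and all groups for H3K4me3 and H3K9ac, and DESeq2 1.42.0 as an alternative. F1 alleles were compared within libraries. The code was tested on simulated data. Alternatives covered the scaling, filter, overlap, start annotation, region width, each replicate left out and a block by library series. Depths are in the report, and intervals are exact (Clopper-Pearson). Sites named were the called ones with the lowest p (5 per direction for Hells, 3 for KI), the 5 highest in ATAC and in H3K4me3 per kb, and the 5 widest, and a site takes the name of the gene that holds its centre or else the nearest gene. The members and lists were chosen with earlier results of these data known. The RefSeq starts and the alternatives for the H3K4me3 level groups were added after seeing the data. One site chosen by the rule for named sites is not reported here. DBA/2J and Spo11 ATAC and inputs were not used here.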

Additional observations from a re-analysis of the deposited data

How the results depend on the processing

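The number of sites stayed within 1.5 times of 4036 under every definition of the starts and of the distance to het peaks that was tried, from 3684 to 4901. Asking for the site centre inside the region gave shares of 38.3% for Hells ATAC, 93.2% for H3K4me3, 83.6% for H3K9ac and 0.273% for HELLS, and the state covering most of a site gave 42.1% for state 1 and 41.5% for state 2. For ATAC without HELLS the fit with the library series of the labels as replicate block called 2 regions at the sites lower, and the fit without it called 0. The series pairs CKO 1 with wt 1 and CKO 2 with wt 2 by label only.

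For H3K4me3 without HELLS, DESeq2 called 30 higher and 1 lower, where 1.32% and 9.88% of all regions were. RLE scaling called 1 lower, where 10.5% of all regions were. Leaving out single libraries gave 0 to 57 higher and 1 to 30 lower. The shares of all regions with each CKO library left out stand above. With Spo11/+ added to wt 14 (0.369%) were lower, where 15.8% of all regions were. With all 4 libraries that have HELLS 7 (0.185%) were higher and 27 (0.713%) lower, where 2.29% and 16.6% of all regions were. For ATAC in KI against B6, DESeq2 called 4, RLE scaling 5 and library size alone 0 lower, with medians of -0.07, -0.07 and 0.03, and single libraries left out gave 10 to 113 higher and 0 to 270 lower. For H3K9ac, leaving out a B6 library gave 12 to 902 higher and 0 to 697 lower, as described above. Without either KI library the medians were 0.01 and 0.02. DESeq2 called 4 lower in H3K9ac and library size alone 8, where 1.69% and 0.510% of all regions were. The median with library size alone was -0.11. For Spo11/Spo11 against Spo11/+ the median was -0.06 with DESeq2, RLE or library size. The share of regions with a CKO peak in the highest of 10 groups by H3K4me3 was 26.1% in regions 1000 to 2000 bp wide and 32.2% to 40.5% with a CKO library left out. In the lowest group it was 3.26%, 0.996% to 2.80%, and 1.18% with the wt level. Of 117 alternatives for the named sites, 96 kept the call, 21 lost it and 0 reversed. The causes were not tested. Counts at 1 Hells wt and 1 Spo11/+ H3K4me3 library, and unscored DMC1 lists, limit what can be read from these comparisons.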
